A study of Mus musculus with 9 samples.

Results

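Expression of genes that encode the extracellular matrix was examined in mouse squamous cell carcinoma (SCC) cells that differ in focal adhesion kinase (FAK). The set held 52 genes named by family: collagens, laminin chains, nidogens, perlecan, agrin, fibronectin, other matrix glycoproteins and proteoglycans, fibrillins and lysyl oxidases. The deposited gene table held 19044 genes, and 49 of the 52 were among them. Lama1, Lum and Eln were not analysed here. RNA-seq libraries came from 3 cell lines of the same origin, with 3 libraries of each. The line stems from skin tumors raised with a chemical carcinogen and a tumor promoter in FVB mice carrying K14CreER and FAK flox/flox alleles, and FAK was deleted in culture with 4-hydroxytamoxifen. FAK-/- cells lack FAK, FAK-WT cells are the same cells with wild-type FAK put back, and FAK-kd cells express a kinase-deficient FAK in its place. Every group therefore carries the deletion of the endogenous gene, and each group is 1 cell line, so an effect of FAK cannot be told apart from any other difference between the lines. The comparisons ask which matrix genes differ between cells with and without FAK, and which differ with its kinase activity.

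Matrix outside a cell takes 2 main forms. Interstitial matrix is built from fibrils of collagen (types I, III and V among them) with fibronectin, tenascins and proteoglycans, and basement membrane is a sheet of type IV collagen and laminin held together by nidogen, perlecan and agrin. Lysyl oxidases cross-link collagen and elastic fibers after secretion. FAK is a kinase at the sites where integrins bind this matrix, and epidermal cells normally rest on a basement membrane that they help to make.

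FAK-WT replicate 1 and FAK-/- replicate 3 stood apart from the other libraries. FAK-WT replicate 1 held 779755 counts, or 2.31% of the median of the other 8 libraries, which held between 25304994 and 37264636. A single count in it was worth 1.26 CPM, the unit of counts scaled by library size used here, so its values for low genes rest on few counts, although it is part of every fit that does not name it as left out. In FAK-/- replicate 3, the deviation of genes from their mean followed GC content (Spearman rho 0.54 over 12145 genes, against values from -0.17 to -0.04 in the other 8). Ptk2, which encodes FAK, stood at 215 ± 1.92 CPM in FAK-WT, 21.6 ± 1.93 CPM in FAK-/- and 163 ± 11.5 CPM in FAK-kd cells (mean ± SD, n = 3). Epithelial markers were nearly absent from these cells: 8 of 10 keratinocyte markers were in the table, 2 of them (Krt8 and Krt15) reached a group mean of 1 CPM, and the list summed to between 0.878 and 3.69 CPM per library. Of 10 fibroblast markers, 8 reached a group mean of 1 CPM, among them Pdgfra, Pdgfrb, Twist1, Twist2 and Prrx1, while Thy1 and Fap had at most 0.053 and 0.039 CPM in any library. The list summed to between 11530 and 12744 CPM, most of it from Vim and S100a4, which many mesenchymal-like cells express.

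Most of the matrix genes were either strongly expressed or nearly silent. A group mean of at least 100 CPM was reached by 17 of the 49, a highest group mean from 10 to 100 CPM by 8, and one from 1 to 10 CPM by 8, while 16 stayed under 1 CPM in every group. CPM values here were scaled with TMM (trimmed mean of M-values). Divided by the length of the longest transcript, Col3a1, the single chain of type III collagen, had the highest level in each cell line, at 293 CPM per kilobase in FAK-WT cells, 258 in the FAK-/- line and 306 in the FAK-kd line. Fn1, fibronectin, came next with 160, 180 and 224 CPM per kilobase. Below them lay a group of genes that changed places between the lines, led by Col6a3 in FAK-WT (72.9 CPM per kilobase) and by Col4a1 in the FAK-/- and FAK-kd lines (95.9 and 87.2). The order was not tested. Type I collagen, the main collagen of skin and tendon, was low on the same scale, with Col1a2 between 0.467 and 1.14 and Col1a1 between 0.086 and 0.232 CPM per kilobase. The 16 genes under 1 CPM were Col5a3, Col11a1, Col27a1, Col4a3, Col4a6, Col8a2, Col15a1, Col17a1, Lama2, Lama3, Lamb3, Nid1, Postn, Dcn, Lox and Loxl2, none above 0.544 CPM in any library. They include Lama3, Lamb3 and Col17a1, whose proteins anchor epidermal cells to the basement membrane.

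**Figure D1:**
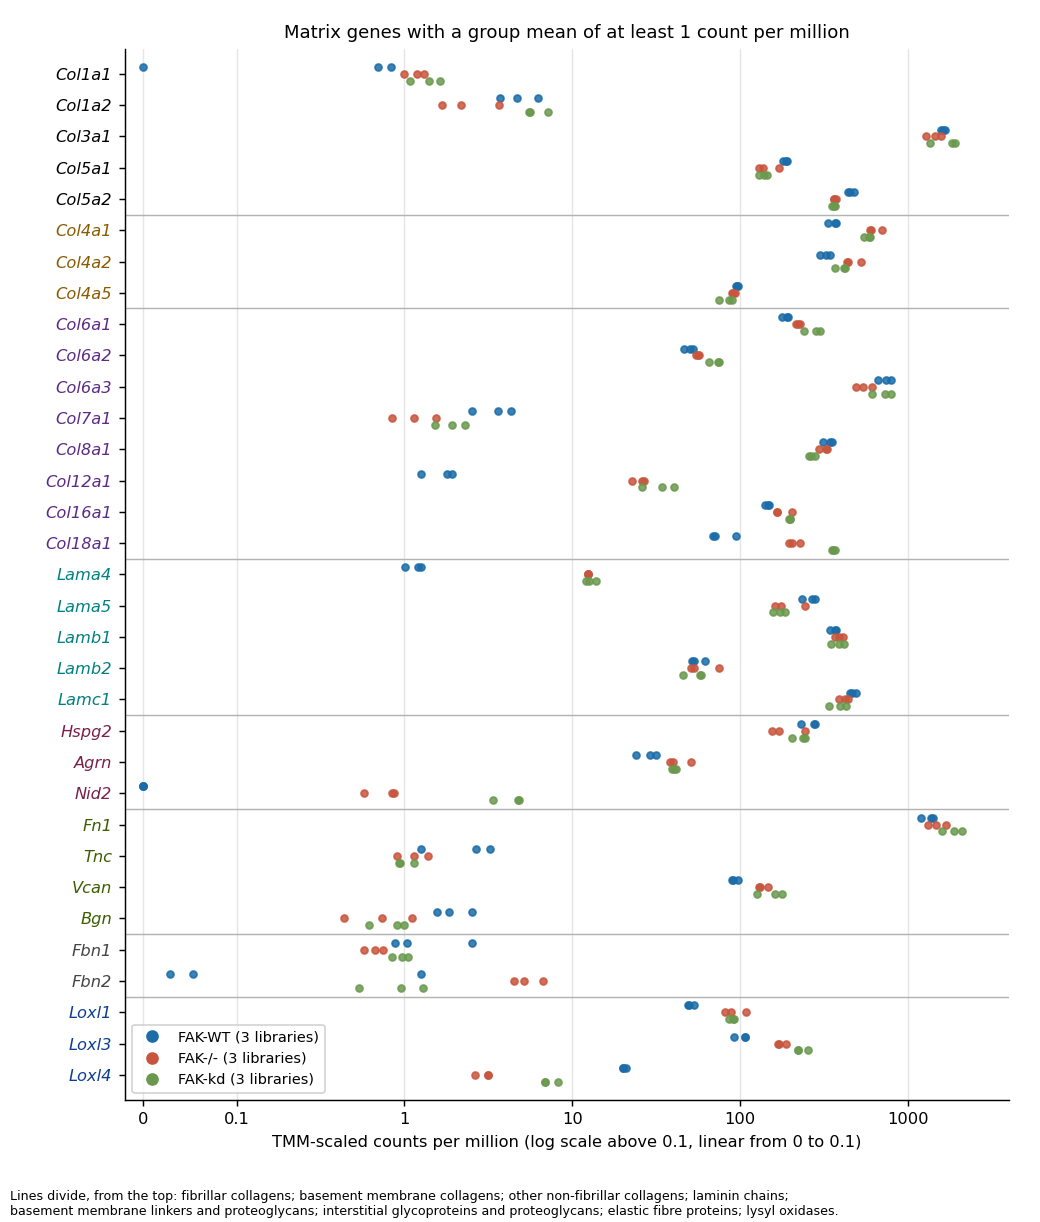
TMM-scaled CPM of the 33 matrix genes with a group mean of at least 1 CPM, by gene and library (horizontal axis logarithmic above 0.1, linear from 0 to 0.1). Each point is a library, colored by cell line, and lines divide the families. Col12a1, Lama4 and Nid2 lie far to the left in FAK-WT, as does Fbn2 in replicates 2 and 3, while Loxl4 lies to the right.

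The members together took a similar share of each line's counts. They made up 0.772% ± 0.030 of counts in FAK-WT, 0.794% ± 0.043 for FAK-/- and 0.874% ± 0.096 for FAK-kd cells (SD, n = 3). The FAK-kd libraries ran from 0.768% to 0.953%, a range that takes in all FAK-WT libraries but the one at 0.738%. Type IV collagen genes had a larger share in FAK-/- (0.119% ± 0.011) and FAK-kd (0.105% ± 0.0068) than in FAK-WT cells (0.0786% ± 0.0037), and so did lysyl oxidase genes, with 0.0272% ± 0.0026, 0.0326% ± 0.0017 and 0.0175% ± 0.00058. Laminin genes ran the other way in the means, at 0.116% ± 0.0063 in FAK-WT, 0.107% ± 0.010 for FAK-/- and 0.100% ± 0.011 for FAK-kd cells, with ranges that overlapped. In a bulk library, fewer cells that express a gene cannot be told apart from less RNA per cell.

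Single genes differed far more than the sum. A gene was called when its adjusted p (edgeR quasi-likelihood test, Benjamini-Hochberg over all 19044 genes) was at most 0.05 and its log2 fold change was at least 1 in size. In FAK-WT against FAK-/- cells, 7 of 49 members rose and 5 fell in FAK-WT, where 2.32% of all genes rose and 3.06% fell. Against FAK-kd cells, 2 members were higher and 6 lower in FAK-WT, beside 2.37% and 2.89% of all genes. In FAK-kd against FAK-/- cells, 3 were higher and 1 lower in FAK-kd, beside 0.914% and 1.09%. The 3 comparisons share libraries in pairs and are not independent. By adjusted p alone, 12 members were higher and 13 lower in the first comparison, beside 8.01% and 9.96% of all genes, 8 and 15 in the second, beside 7.58% and 10.2%, and 8 and 2 in the third, beside 3.97% and 3.88%. The median log2 fold change of the members was -0.11, -0.09 and 0.15 in these comparisons, and that of all genes was 0.00. A mean of at least 10 CPM over the libraries was reached by 24 of the 49 members and 8649 of the 19044 genes. At that level 12.5%, 16.7% and 4.17% of the members were called, beside 2.61%, 2.21% and 0.694% of the genes. With FAK-WT replicate 1 left out, the calls were 7 higher and 5 lower, 3 and 6, and 3 and 1, and with FAK-/- replicate 3 left out they were 8 and 5, 4 and 6, and 4 and 1. The 7 higher members of the first comparison became 3 without FAK-WT replicate 2 and 4 without FAK-WT replicate 3 or FAK-/- replicate 2, and the 2 of the second became 4 without FAK-/- replicate 1 or 2.

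**Figure D2:**
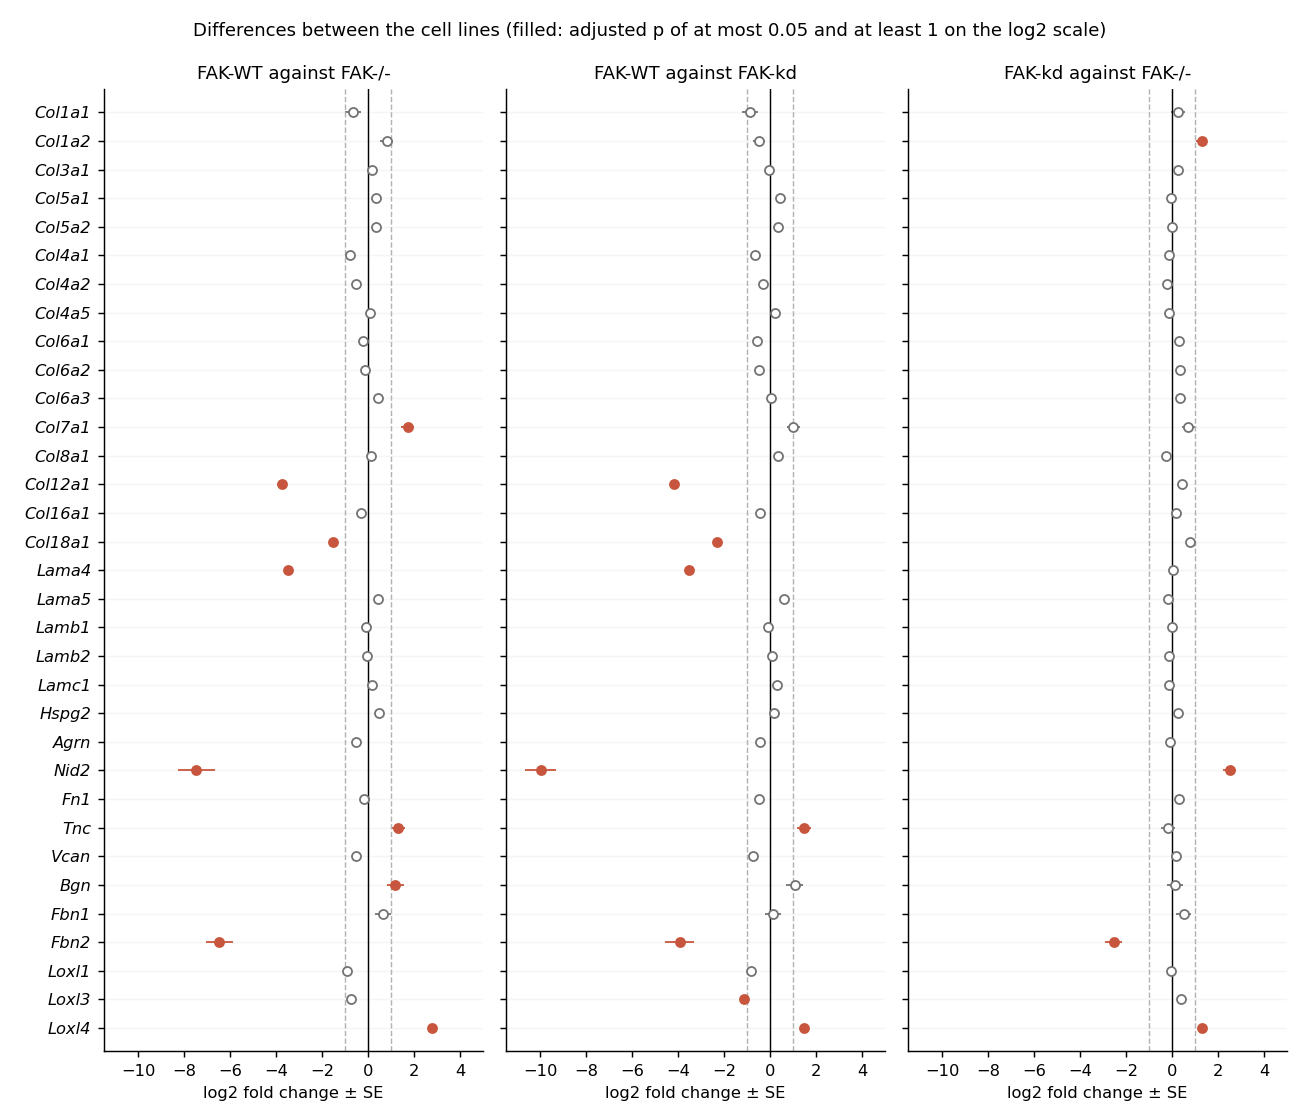
Log2 fold changes with standard errors for the same 33 genes in the 3 comparisons; a value below 0 is lower in the line named first. Filled points are called, dashed lines mark 1 and -1, and the points of Nid2 against FAK-WT rest on 0 counts in FAK-WT and are no measure of size.

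The fibrillar collagens, whose triple helices assemble into the fibrils of connective tissue, gave 1 call in the 3 comparisons. None of the 8 was called between FAK-WT and either other line. Col3a1 ranged from 1585 to 1676 CPM in FAK-WT, 1287 to 1569 in FAK-/- and 1359 to 1913 in FAK-kd libraries, with a log2 fold change of 0.18 ± 0.11 (SE) in FAK-WT against FAK-/- (edgeR adjusted p = 0.289). The type V chains Col5a1 and Col5a2, which start and limit the width of fibrils, were higher in FAK-WT by less than the fold minimum. For Col5a2 the FAK-WT libraries lay between 439 and 477 CPM, above the FAK-/- ones (365 to 374) and the FAK-kd ones (353 to 369), with log2 fold changes of 0.32 ± 0.06 and 0.34 ± 0.06 (edgeR adjusted p = 0.00188 and 0.00107). Their ratio, Col5a1 to Col5a2 in counts, was 0.409 in FAK-WT cells, 0.392 in the FAK-/- line and 0.382 in the FAK-kd line.

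Col1a2, one of the 2 chains of type I collagen, was the only fibrillar gene called, and it was low throughout. It stood at 6.29, 4.68 and 3.72 CPM in FAK-WT, 1.68, 2.17 and 3.65 CPM in FAK-/- and 5.55, 7.16 and 5.62 CPM in FAK-kd libraries. All FAK-kd libraries lay above all FAK-/- ones, and the highest FAK-/- library, replicate 3, came close to the lowest of FAK-WT. It rose in FAK-kd over FAK-/- cells by 1.29 ± 0.25 (edgeR adjusted p = 0.00469). In FAK-WT over FAK-/- cells the value was 0.80 ± 0.27 (edgeR adjusted p = 0.0584), and in the 9 fits that left out 1 library it was called only without FAK-/- replicate 3 (1.17 ± 0.23, edgeR adjusted p = 0.000565), with edgeR adjusted p up to 0.249 in the others. Its partner Col1a1 did not follow: it held 33 to 37 counts in FAK-/- and 36 to 56 in FAK-kd libraries, a log2 fold change of 0.25 ± 0.31 (edgeR adjusted p = 0.678).

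Type IV collagen forms the network of basement membranes. Its common chains, Col4a1 and Col4a2, were lower in FAK-WT than in either other line, by less than the fold minimum. Col4a1 stood at 335, 374 and 370 CPM in FAK-WT, 600, 599 and 703 in FAK-/- and 552, 584 and 596 in FAK-kd libraries, and Col4a2 at 301, 342 and 326, at 437, 441 and 526, and at 370, 415 and 424 CPM. No FAK-WT library reached the lowest library of either other line for either gene. The log2 fold changes of FAK-WT against FAK-/- were -0.81 ± 0.08 for Col4a1 and -0.52 ± 0.09 for Col4a2 (edgeR adjusted p = 2.40e-06 and 0.000446), and against FAK-kd cells -0.67 ± 0.08 and -0.31 ± 0.09 (edgeR adjusted p = 1.55e-05 and 0.0195). Col4a5, a chain of another type IV network, did not share this difference, with 94.4 to 96.9 CPM in FAK-WT, 89.0 to 93.0 in FAK-/- and 75.3 to 89.2 in FAK-kd libraries. Per kilobase, it was 12.3% ± 0.78 of all type IV collagen counts in FAK-WT and 7.67% ± 0.80 and 7.85% ± 0.26 in FAK-/- and FAK-kd cells.

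Col4a1 and Col4a2 are transcribed from opposite strands of neighboring DNA, and the protein combines 2 Col4a1 chains with 1 Col4a2 chain. In the RefSeq table of promoters (GRCm38.p6) the start of Col4a2 on the plus strand lies inside that of Col4a1 on the minus strand. The first 22 bases of both transcripts therefore come from the same stretch, chr8:11312805-11312826, shown on the plus strand:

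Col4a2 start to Col4a1 start: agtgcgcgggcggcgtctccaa

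Col4a1 to Col4a2 was 1.11 in FAK-WT cells, 1.36 in the FAK-/- line and 1.43 in the FAK-kd line, or 0.16 ± 0.03, 0.44 ± 0.02 and 0.52 ± 0.05 on the log2 scale (SD, n = 3). A ratio of counts within a library does not depend on how libraries are scaled. The 9 libraries of the 3 lines did not overlap in this ratio. An exact two-sided permutation test gave p = 0.1 for each pair of lines, the smallest p that 3 against 3 libraries allow, and 0.3 after Benjamini-Hochberg adjustment over 12 tests on 4 ratios. GC content was 57.7% in Col4a1 and 60.6% in Col4a2, and FAK-/- replicate 3 had a ratio of 0.42, beside 0.46 and 0.44 in the other FAK-/- libraries. Col5a1 to Col5a2, under the same exact permutation test, also gave p = 0.1 in FAK-WT against FAK-kd cells and 0.6 and 1 in the other pairs, and Col6a1 to Col6a2 and Lamb1 to Lamb2 gave 0.2 or more in every pair.

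Among the collagens that are neither fibrils nor type IV, Col12a1 and Col18a1 fell in FAK-WT cells. Col12a1, a collagen on the surface of fibrils, stood at 1.26, 1.78 and 1.93 CPM in FAK-WT, 22.6, 26.1 and 26.7 in FAK-/- and 26.0, 34.4 and 40.7 in FAK-kd libraries. The FAK-WT values rest on 1, 67 and 67 counts and lie far below every other library. The log2 fold change was -3.76 ± 0.19 against FAK-/- and -4.19 ± 0.19 against FAK-kd cells (edgeR adjusted p = 2.33e-09 and 7.05e-10), a 13.6-fold and an 18.2-fold lower level. FAK-kd and FAK-/- libraries overlapped, and their difference of 0.42 ± 0.13 had an edgeR adjusted p of 0.0675.

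Col18a1, a basement membrane collagen whose end fragment is endostatin, was lower in FAK-WT and higher in FAK-kd than in FAK-/- cells. Its levels were 94.4, 70.5 and 68.7 CPM in FAK-WT, 204, 197 and 229 in FAK-/- and 355, 358 and 368 in FAK-kd libraries. The 3 lines did not overlap, with FAK-/- cells between the others. The log2 fold change of FAK-WT was -1.52 ± 0.10 against FAK-/- and -2.30 ± 0.10 against FAK-kd cells (edgeR adjusted p = 2.63e-08 and 3.05e-10), and that of FAK-kd over FAK-/- cells was 0.78 ± 0.09 (edgeR adjusted p = 3.37e-05), under the fold minimum.

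Promoters are shown for the 2 called genes with a group mean of at least 10 CPM that the RefSeq table holds, Col18a1 and Loxl4, since they moved in opposite directions. Each run goes from 250 bases before the start to 30 after it, on the minus strand of GRCm38.p6. Col18a1 has 2 starts, at chr10:77113676-77113955 and chr10:77166501-77166780, and Loxl4 1, at chr19:42612777-42613056. Capitals mark matches on either strand to GGGCGG (a GC box) or GGAATG (the site of TEAD factors). TGANTCA (an AP-1 site), TGACGTCA (a CRE) and TATAAA (the core promoter box bound by TBP) were searched too and are not in these 3 windows.
Col18a1 first window: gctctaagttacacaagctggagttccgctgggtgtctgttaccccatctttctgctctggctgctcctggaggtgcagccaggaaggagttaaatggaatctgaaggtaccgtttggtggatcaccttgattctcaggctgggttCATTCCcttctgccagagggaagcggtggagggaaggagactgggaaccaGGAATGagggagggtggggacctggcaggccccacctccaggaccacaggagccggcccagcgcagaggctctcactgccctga
Col18a1 second window: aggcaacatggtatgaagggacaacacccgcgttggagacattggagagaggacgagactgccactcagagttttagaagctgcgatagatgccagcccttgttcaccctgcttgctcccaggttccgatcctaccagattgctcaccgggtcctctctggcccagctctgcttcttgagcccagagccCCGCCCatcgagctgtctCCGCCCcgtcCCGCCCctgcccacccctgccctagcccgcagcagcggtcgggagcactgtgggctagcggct
Loxl4: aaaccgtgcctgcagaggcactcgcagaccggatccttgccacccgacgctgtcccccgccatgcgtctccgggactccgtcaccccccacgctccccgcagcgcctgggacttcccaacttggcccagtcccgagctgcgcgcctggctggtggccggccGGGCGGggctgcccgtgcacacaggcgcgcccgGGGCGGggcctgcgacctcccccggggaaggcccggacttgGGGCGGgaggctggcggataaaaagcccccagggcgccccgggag

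The first Col18a1 window holds 2 GGAATG matches, the second 3 GC boxes, and the Loxl4 window 3 GC boxes, and no 2 matches overlap. Of 32851 windows of this length in the table, 34.7% hold a GC box, 13.9% GGAATG, 7.46% TGANTCA, 1.74% TGACGTCA and 13.1% TATAAA. The corresponding shares of the 8678 windows of genes with a mean of at least 10 CPM were 65.7%, 10.9%, 4.21%, 3.18% and 6.06%. Windows were found for 34 of the 49 members, 40 in all, and 72.5% of these hold a GC box, 15.0% GGAATG, 2.5% TGANTCA (1 window, of Col6a1), 0.0% TGACGTCA and 12.5% TATAAA. These are matches of letters and were not read as binding.

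Col7a1, the anchoring fibril under the epidermis, was higher in FAK-WT cells at a low level. It stood at 2.52, 4.31 and 3.63 CPM in FAK-WT, 0.839, 1.14 and 1.54 in FAK-/- and 1.53, 2.31 and 1.93 in FAK-kd libraries. Every FAK-WT library was above every library of the other lines, with 2 counts in FAK-WT replicate 1 and 162 and 126 in the others, and FAK-/- and FAK-kd overlapped. It rose in FAK-WT over FAK-/- cells by 1.71 ± 0.29 (edgeR adjusted p = 0.000575). Over FAK-kd cells the value was 1.00 ± 0.28 (edgeR adjusted p = 0.0206), just under the fold minimum as computed. In the 9 fits that left out 1 library it ran from 0.85 (edgeR adjusted p = 0.180, without FAK-WT replicate 2) to 1.16, and it was called in 5 of them.

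The 3 chains of type VI collagen, a beaded filament network, did not move as a unit. Col6a1 ranged from 178 to 194 CPM in FAK-WT, 216 to 228 in FAK-/- and 241 to 300 in FAK-kd libraries, and the 3 lines did not overlap. Col6a2 followed the same order, at 46.6 to 52.5, 54.6 to 57.2 and 65.7 to 75.4 CPM. Col6a3 did not, at 669 to 796 CPM in FAK-WT, 494 to 616 in FAK-/- and 608 to 791 in FAK-kd libraries. In FAK-kd over FAK-/- cells the 3 chains had log2 fold changes of 0.31 ± 0.08, 0.35 ± 0.08 and 0.36 ± 0.10 (edgeR adjusted p = 0.0249, 0.00991 and 0.0368), while in FAK-WT over FAK-/- cells they were -0.25 ± 0.08, -0.14 ± 0.08 and 0.41 ± 0.10 (edgeR adjusted p = 0.0492, 0.295 and 0.0101). None of these reached the fold minimum. Col8a1, of the sheets of type VIII collagen, and Col16a1, a minor collagen at fibril surfaces, had log2 fold changes between -0.46 and 0.35 in the 3 comparisons.

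Among the laminins, trimers of an alpha, a beta and a gamma chain that polymerize into the basement membrane, Lama4 was called in both comparisons with FAK-WT and Lamb3 in 1, and no other chain was called. Lama4, the alpha chain best known from vessels, fat and muscle, stood at 1.26, 1.01 and 1.21 CPM in FAK-WT, 12.4, 12.4 and 12.4 in FAK-/- and 12.0, 12.5 and 13.9 in FAK-kd libraries. The FAK-WT libraries held 1, 38 and 42 counts against 315 to 475 in the other 6, with no overlap. It fell in FAK-WT cells, with a log2 fold change of -3.47 ± 0.16 against FAK-/- and of -3.52 ± 0.16 against FAK-kd cells (edgeR adjusted p = 8.25e-10 and 4.85e-10). FAK-kd and FAK-/- cells differed by 0.05 ± 0.11 (95% interval -0.17 to 0.26).

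Lama5, the other alpha chain of note here, is broadly used in epithelia. It ranged from 234 to 278 CPM in FAK-WT, 163 to 245 in FAK-/- and 156 to 184 in FAK-kd libraries, and FAK-WT overlapped FAK-/- only through FAK-/- replicate 3. Its log2 fold change was 0.41 ± 0.13 against FAK-/- and 0.59 ± 0.13 against FAK-kd cells (edgeR adjusted p = 0.0379 and 0.00421), and with 1 library left out the first reached an edgeR adjusted p of 0.126. Per kilobase, Lama4 made up 0.839% ± 0.13 of the alpha chain counts in FAK-WT, 11.0% ± 2.04 for FAK-/- and 12.3% ± 0.36 for FAK-kd cells, and Lama5 nearly all of the rest. Lamb1 (345 to 415 CPM over all libraries), Lamb2 (45.7 to 74.8 CPM) and Lamc1 (341 to 493 CPM) were not called, and their log2 fold changes ran from -0.14 to 0.28, with Lamc1 in FAK-WT over FAK-kd cells the largest of them (0.28 ± 0.08, edgeR adjusted p = 0.0272).

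Lamb3, the beta chain of the epidermal laminin, was called in FAK-WT over FAK-/- cells on few counts. It had 0, 20 and 14 counts in FAK-WT, 0, 0 and 2 in FAK-/- and 5, 6 and 7 in FAK-kd libraries. The pooled ratio of FAK-WT to FAK-/- was 21.1 (95% counting interval 5.40 to 181), and the edgeR adjusted p was 0.00252. Col4a6, a type IV chain that also belongs to epithelial basement membranes, was called likewise with 0, 8 and 11 counts in FAK-WT and 2, 0 and 0 in FAK-/- libraries (pooled ratio 11.8, 95% counting interval 2.84 to 104, edgeR adjusted p = 0.0223). This call was lost without FAK-WT replicate 2 or 3 or without FAK-/- replicate 2, where the edgeR adjusted p reached 0.128. Such intervals cover counting error alone.

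**Figure D3:**
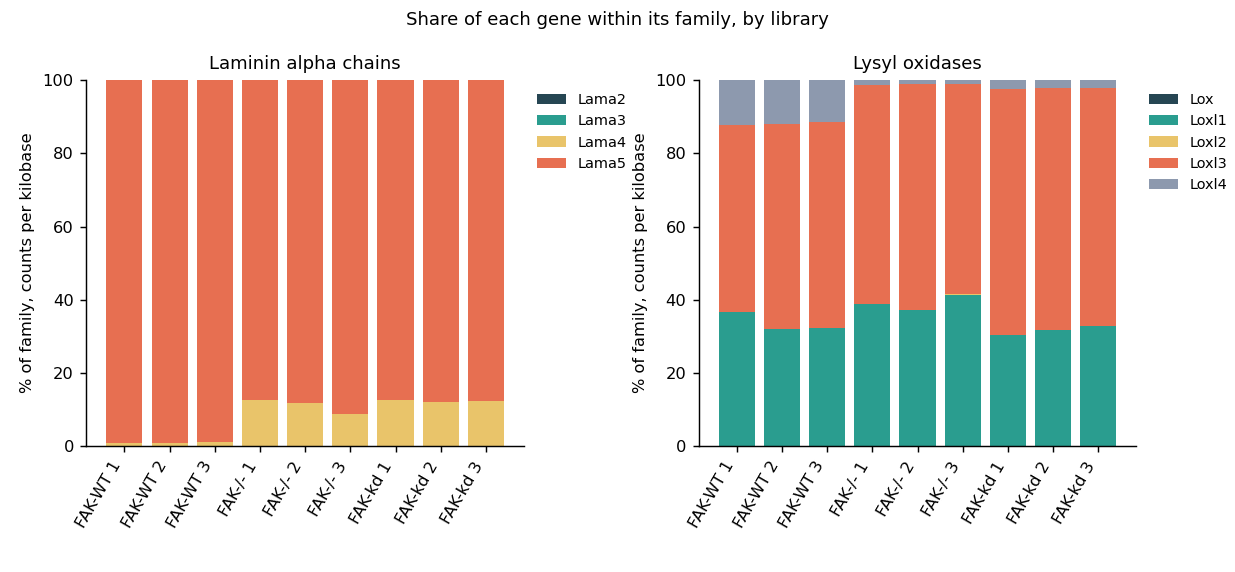
Stacked bars give the share of each laminin alpha chain (left) and each lysyl oxidase (right) in the counts per kilobase of its family, in percent, for each library. Lama4 is 0.839% of the alpha chains in FAK-WT and 11.0% and 12.3% in the other lines, and Loxl4 is 12.0% of the lysyl oxidases in FAK-WT and 1.11% and 2.27% in the others.

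Of the proteins that link the laminin and collagen networks, Nid2 (nidogen-2) fell to 0 in FAK-WT cells. It had 0 counts in each FAK-WT library, 28, 22 and 18 in FAK-/- and 113, 158 and 164 in FAK-kd libraries, or 0.839, 0.867 and 0.576 CPM and 3.39, 4.73 and 4.80 CPM. The lines did not overlap. Set against a floor of 3 counts per FAK-WT library, the FAK-WT level was lower by at least 6.10-fold against FAK-/- cells and by at least 34.4-fold against the FAK-kd line (edgeR adjusted p = 1.84e-05 and 2.77e-07). FAK-kd cells were above FAK-/- cells by 2.50 ± 0.29 (edgeR adjusted p = 0.000112). FAK-WT replicate 1 was too shallow to show levels of this size. Nid1, the related nidogen, was at 0 counts in all FAK-WT and FAK-kd libraries and at 8 counts in all in FAK-/- cells.

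Perlecan and agrin, the heparan sulfate proteoglycans of basement membrane, stayed under the fold minimum. Hspg2, perlecan, ranged from 231 to 279 CPM in FAK-WT, 154 to 245 in FAK-/- and 205 to 245 in FAK-kd libraries, and all 3 overlapped. Its log2 fold change in FAK-WT over FAK-/- cells was 0.45 ± 0.14 (edgeR adjusted p = 0.0368), which missed 0.05 in 5 of the 9 fits that left out 1 library (edgeR adjusted p up to 0.140), and over FAK-kd cells it was 0.18 ± 0.14 (edgeR adjusted p = 0.446). Agrn, agrin, ranged from 23.9 to 31.5 CPM in FAK-WT, 38.3 to 51.3 in FAK-/- and 39.3 to 41.3 in FAK-kd libraries, with log2 fold changes of -0.55 ± 0.12 and -0.45 ± 0.12 for FAK-WT (edgeR adjusted p = 0.0046 and 0.0163).

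Fibronectin and the large proteoglycan versican were the abundant glycoproteins. Fn1, which carries integrin binding sites and is laid down before collagen, stood at 1415, 1372 and 1206 CPM in FAK-WT, 1315, 1481 and 1701 in FAK-/- and 1590, 1883 and 2117 in FAK-kd libraries. FAK-kd libraries were above all FAK-WT ones, and FAK-/- overlapped both. FAK-WT was lower than FAK-kd cells by a log2 fold change of -0.49 ± 0.11 (edgeR adjusted p = 0.00418), and against FAK-/- cells the value was -0.17 ± 0.11 (edgeR adjusted p = 0.315). Vcan, versican, was lower in FAK-WT (89.4 to 97.1 CPM) than in FAK-/- (129 to 147) and FAK-kd libraries (126 to 178), by -0.54 ± 0.11 and -0.74 ± 0.11 (edgeR adjusted p = 0.00225 and 0.000173).

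Tnc, tenascin-C, a glycoprotein of wounds and tumor stroma, rose in FAK-WT cells at a low level. It stood at 1.26, 3.25 and 2.65 CPM in FAK-WT, 0.899, 1.14 and 1.38 in FAK-/- and 1.14, 0.929 and 0.937 in FAK-kd libraries. The 2 deep FAK-WT libraries, with 122 and 92 counts, were above the other 6 (29 to 43 counts), and the shallow one held 1 count. The log2 fold change was 1.30 ± 0.30 over FAK-/- and 1.48 ± 0.30 over FAK-kd cells (edgeR adjusted p = 0.00605 and 0.00223). Without FAK-WT replicate 2 the first of these was lost (edgeR adjusted p = 0.0883).

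Biglycan and decorin, small leucine-rich proteoglycans that bind collagen, had calls that rested on few counts. Bgn, biglycan, stood at 2.52, 1.84 and 1.56 CPM in FAK-WT, 1.11, 0.434 and 0.736 in FAK-/- and 0.899, 0.989 and 0.615 in FAK-kd libraries. FAK-WT libraries lay above all others, with 2, 69 and 54 counts, and the value over FAK-/- cells was 1.18 ± 0.38 (edgeR adjusted p = 0.0402). That call was lost in 5 of the 9 fits that left out a library, and over FAK-kd cells, at 1.07 ± 0.37, the edgeR adjusted p was 0.0624, and from 0.0284 to 0.242 with 1 library left out. Dcn, decorin, with 0, 19 and 13 counts in FAK-WT and 5, 0 and 3 in FAK-/- libraries (edgeR adjusted p = 0.0426), was also lost in 5 of 9. Postn, periostin, had 1 count in all libraries together.

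The fibrillins, the scaffold of elastic fibers and a store for growth factors, held the one member that fell in FAK-kd relative to FAK-/- cells. Fbn2 had 1, 2 and 1 counts in FAK-WT, 151, 131 and 208 in FAK-/- and 32, 18 and 44 in FAK-kd libraries, or 4.52, 5.17 and 6.66 CPM in FAK-/- and 0.959, 0.539 and 1.29 CPM in FAK-kd. FAK-WT libraries stood at 1.26, 0.053 and 0.029 CPM, the first from the 1 count of the shallow replicate 1, and so overlapped FAK-kd. The 2 deep FAK-WT libraries lay below every FAK-kd library, and the FAK-/- libraries lay above all others. Over pooled counts, FAK-/- cells were 98.9-fold (95% counting interval 38.4 to 364) and FAK-kd cells 16.7-fold (6.32 to 62.7) above FAK-WT (edgeR adjusted p = 1.48e-06 and 0.000379). FAK-kd was below FAK-/- by a log2 fold change of -2.55 ± 0.35 (edgeR adjusted p = 0.000283). DESeq2 gave -2.56 ± 1.07 with an adjusted p of 0.11 for that comparison. Fbn1 stayed between 0.576 and 2.52 CPM and was not called.

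The lysyl oxidase family includes Loxl4, which was called in all 3 comparisons. Loxl4 stood at 20.1, 21.1 and 20.1 CPM in FAK-WT, 3.15, 2.64 and 3.17 in FAK-/- and 8.21, 6.86 and 6.85 in FAK-kd libraries. The 3 lines were far apart, with FAK-kd in the middle. Loxl4 rose by 2.77 ± 0.14 in FAK-WT over FAK-/-, by 1.49 ± 0.13 over FAK-kd, and by 1.29 ± 0.13 in FAK-kd over FAK-/- cells (edgeR adjusted p = 1.93e-09, 7.84e-07 and 1.62e-05), a 6.84-fold, 2.81-fold and 2.44-fold difference.

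Loxl3 and Loxl1, its more abundant relatives, went the other way. Loxl3 stood at 91.9, 107 and 107 CPM in FAK-WT, 170, 168 and 189 in FAK-/- and 253, 223 and 222 in FAK-kd libraries. FAK-WT was lowest and FAK-kd highest, with no overlap between lines. Against FAK-kd cells it fell in FAK-WT (log2 fold change -1.15 ± 0.08, edgeR adjusted p = 9.90e-08), and against FAK-/- cells the value was -0.75 ± 0.08 (edgeR adjusted p = 8.83e-06), under the fold minimum. For Loxl1 the ranges were 49.2 to 52.9 CPM in FAK-WT, 81.5 to 109 in FAK-/- and 85.9 to 92.0 in FAK-kd libraries, with log2 fold changes of -0.91 ± 0.10 and -0.85 ± 0.10 for FAK-WT (edgeR adjusted p = 1.11e-05 and 2.20e-05). Per kilobase, Loxl4 made up 12.0% ± 0.40 of the family in FAK-WT, 1.11% ± 0.087 for FAK-/- and 2.27% ± 0.11 for FAK-kd cells. Lox itself and Loxl2 had at most 0.256 CPM.

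**Figure D4:**
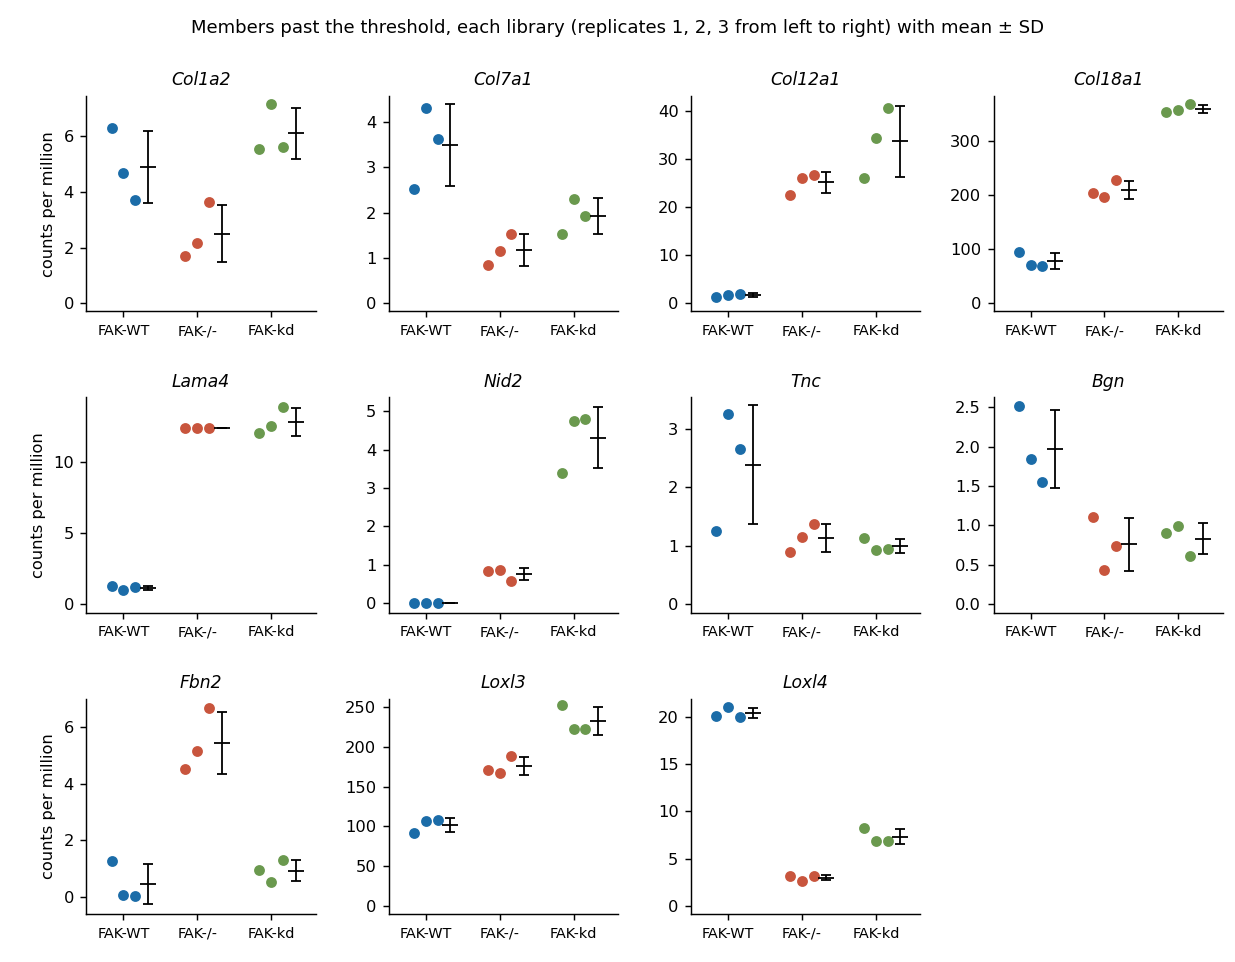
CPM in each library for the 11 called genes with a group mean of at least 1 CPM, each on its own linear axis; points are replicates 1, 2 and 3 from left to right, and bars give mean ± SD (n = 3). Col12a1, Lama4 and Nid2 are near 0 in FAK-WT, Loxl4 is highest there, and Col18a1, Nid2 and Loxl3 are highest in FAK-kd.

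Patterns over the 3 lines differed between genes. Col12a1, Col18a1, Lama4, Nid2 and Fbn2 fell in FAK-WT cells against both other lines. Tnc and Loxl4 rose in FAK-WT against both. Col4a6, Col7a1, Lamb3, Bgn and Dcn were called in FAK-WT over FAK-/- cells, and Loxl3 in FAK-WT against FAK-kd cells, without a call in the other FAK-WT comparison. Of the 10 fibroblast markers, 2 were called in FAK-WT against FAK-/- cells, beside 5.38% of all genes. They were Pdgfra and Pdgfrb, both lower in FAK-WT (log2 fold change -1.44 ± 0.16 and -2.04 ± 0.17, edgeR adjusted p = 1.35e-05 and 4.28e-07). The median log2 fold change of the 10, with Thy1 and Fap near 0 CPM among them, was 0.02. By adjusted p alone, 3 of the 10 were lower in FAK-WT and 0 higher. Against FAK-kd cells the same 2 genes were called lower (-1.11 ± 0.16 and -2.40 ± 0.17, edgeR adjusted p = 0.000157 and 7.35e-08), or 20% of the list beside 5.26% of all genes. The summed fibroblast list ran from 11530 to 11573 CPM in FAK-WT, 11566 to 11822 in FAK-/- and 12398 to 12744 in FAK-kd libraries. The keratinocyte list summed to 0.878 to 1.26, 1.81 to 2.27 and 2.58 to 3.69 CPM, and the endothelial list to 1.26 to 2.13, 0.419 to 0.64 and 0.3 to 0.381 CPM. Krt15 and Krt8 gave most of the keratinocyte sums. Cdh5 gave most of the endothelial sum in FAK-WT (mean 1.49 CPM, against 0.142 in FAK-/- and 0.0195 in FAK-kd cells). The median log2 fold change of the endothelial list in FAK-WT against FAK-/- cells was -0.94. Of the immune list, 2 of 5 markers were in the table, with a sum of at most 3.33 CPM. The part of these markers in the differences of matrix genes was not tested.

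In FAK-/- replicate 3, matrix genes deviated along with their GC content, and the cause was not tested. Their transcripts were GC-rich: the 24 members with a mean of at least 10 CPM had a median GC content of 55.8%, against 49.4% for the 8608 genes at that level with a known transcript. Of these 24, 18 were higher in FAK-/- replicate 3 than in the mean of replicates 1 and 2, and over the 24 the log2 ratio rose with GC content (Pearson r 0.73, Spearman rho 0.77, across genes of the same libraries). The share of the 8608 genes that were higher is not given here, so the count cannot be called particular to matrix genes. Hspg2 was 1.51-fold, Lama5 1.45-fold and Lamb2 1.44-fold above the other FAK-/- libraries. Without FAK-/- replicate 3, the log2 fold change of FAK-WT over FAK-/- cells was 0.67 for Hspg2 and 0.60 for Lama5 (edgeR adjusted p = 3.33e-06 and 3.40e-06), still under the fold minimum. Correcting all libraries for GC content gave 0.65 and 0.58 (edgeR adjusted p = 5.53e-05 and 6.08e-05). For Col4a1, the same 2 settings gave -0.71 and -0.69, for Col18a1 -1.49 and -1.36, and for Lama4 -3.48 and -3.48.

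**Figure D5:**
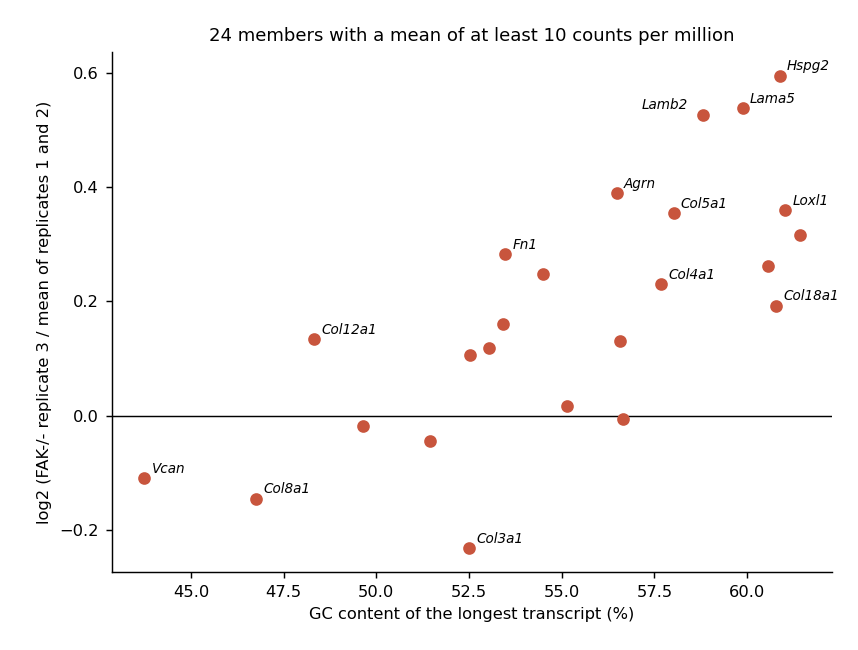
For the 24 matrix genes with a mean of at least 10 CPM, the log2 ratio of FAK-/- replicate 3 to the mean of FAK-/- replicates 1 and 2 is plotted against the GC content of the longest transcript in percent. GC-rich genes such as Hspg2 and Lama5 lie highest, and Vcan, Col8a1 and Col3a1 lie below 0.

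Genes that act on collagen after translation were counted as well. Of 31 genes for collagen biosynthesis and processing (hydroxylases, chaperones, propeptide proteases and transglutaminases), 30 were in the table. In the 3 comparisons 1, 2 and 1 were called (3.33%, 6.67% and 3.33%), beside 5.38%, 5.26% and 2.01% of all genes. By adjusted p alone, 10, 9 and 7 of the 30 passed (33.3%, 30% and 23.3%), beside 18.0%, 17.7% and 7.84% of all genes. Plod2, which hydroxylates lysines at the cross-link sites of fibrillar collagen, rose in FAK-WT cells, with 115 ± 4.48 CPM against 41.2 ± 2.98 in FAK-/- and 34.7 ± 1.78 in FAK-kd cells (log2 fold change 1.50 ± 0.08 and 1.75 ± 0.08, edgeR adjusted p = 5.78e-09 and 1.17e-09). Tgm2, a transglutaminase that cross-links fibronectin and other matrix proteins, was higher in FAK-kd cells, at 64.8 ± 4.45 CPM against 20.4 ± 1.25 in FAK-WT and 25.0 ± 1.10 in FAK-/- cells (SD, n = 3). Of 20 other collagens, 15 were in the table, and 2, 3 and 0 were called. These are 13.3%, 20% and 0% of the 15, to be set beside the shares of all genes above. The highest group means of the called genes were only 0.698, 0.0924 and 1.15 CPM, so these calls rest on few counts.

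Of 45 other basement membrane and glycoprotein genes, 41 were in the table. In FAK-WT against FAK-/- cells 7 were higher and 6 lower, against FAK-kd cells 4 and 5, and in FAK-kd against FAK-/- cells 3 and 3. In the same order, 31.71%, 21.95% and 14.63% of the 41 were called, beside 5.38%, 5.26% and 2.01% of all genes. The difference between these shares was not tested. Some of the called genes were low, with highest group means of 0.462 CPM for Tnr, 1.31 for Ltbp2 and 1.48 for Fbln2. Tgfbi, an integrin-binding matrix protein, fell in FAK-WT cells, at 65.7 ± 0.91 CPM against 374 ± 12.8 in FAK-/- and 364 ± 8.25 in FAK-kd cells. Smoc2 and Npnt, basement membrane associated proteins, fell as well, with log2 fold changes of -2.96 ± 0.14 and -2.90 ± 0.15 against FAK-/- cells, and Tinagl1 rose by 2.07 ± 0.12 (edgeR adjusted p = 1.57e-09, 3.44e-09 and 7.09e-09). Smoc1 went against Smoc2, with 16.4 ± 2.49 CPM in FAK-WT, 1.55 ± 0.27 for FAK-/- and 0.198 ± 0.059 for FAK-kd cells. Efemp1, a fibulin, was called higher in FAK-WT and in FAK-kd than in FAK-/- cells, at 90.9 ± 17.3 CPM against 282 ± 7.82 in FAK-WT and 261 ± 3.03 in FAK-kd cells. Aebp1 fell in FAK-WT against FAK-/- cells (-1.11 ± 0.08), and Emilin2 rose in FAK-WT over FAK-kd cells (1.01 ± 0.11; edgeR adjusted p = 1.07e-07 and 5.69e-06).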

How the data were processed

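RNA-seq of 9 libraries was analyzed, 3 from each of 3 mouse SCC cell lines, grouped by the label that names the FAK construct. Per the labels and the study's methods, the authors prepared libraries with the TruSeq RNA Library Prep Kit v2, sequenced them in pairs of reads, estimated transcript abundance with kallisto 0.43.1, summed it to genes and tested genes with DESeq2. The deposited table holds estimated counts per gene as whole numbers, not normalized, for 19044 Ensembl gene IDs of GRCm38 (mm10), of which 18856 matched a GENCODE symbol. Estimated counts divide reads of near-identical sequence between genes by model. The study describes the 3 libraries of a line as biological replicates of that line, and p-values measure the spread between them. CPM are counts scaled to a library total of 10 to the power 6 after TMM.

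The counts were tested with edgeR 4.0.16 in R 4.3.3: TMM scaling, no filter on low counts, quasi-likelihood test, all 9 libraries in 1 fit with cell line as the only term, p-values adjusted over all genes (Benjamini-Hochberg). A gene was called if its adjusted p did not exceed 0.05 and its log2 fold change was 1 or more, or -1 or less. Standard errors were taken as the log2 fold change divided by the root of the F statistic. Levels per kilobase divide by the longest GENCODE transcript. The fit was tested on simulated data, with 200 of 18434 genes changed by 2 on the log2 scale. It recovered 199 in FAK-WT against FAK-/- and 198 in FAK-WT against FAK-kd cells, with 18 and 15 calls among unchanged genes. In FAK-kd against FAK-/- cells, where no gene was changed, it made 13 calls. The changed genes were drawn only from genes above a minimum mean count, and the simulated spread was capped. Recovery of genes with few counts, such as Lamb3, Col4a6 and Dcn, was therefore not tested. Ratios of chains were compared with exact two-sided permutation tests over libraries. Promoters came from RefSeq (GRCm38.p6). Alternatives were DESeq2 1.42.0, its size factors, library sizes alone, a filter on low counts, fits of 2 lines, a replicate block, a test against the fold minimum, no fold minimum, a GC correction and leaving out each library. Leaving out both FAK-WT replicate 1 and FAK-/- replicate 3 was added after seeing the data.

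The members and the lists of other genes were chosen with earlier results of these data known. Per-library values were given for members called in at least 1 comparison with a group mean of at least 1 CPM, and list genes were named if called with a group mean of at least 10 CPM. Libraries with 1 count worth more CPM are less precise: 3 counts were taken as the floor below which a gene cannot be said to be absent.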

Additional observations from a re-analysis of the deposited data

Results flagged for a closer look

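In 4 of the 49 members, FAK-WT and FAK-kd cells deviated from FAK-/- cells in opposite directions. All 3 differences, each line against FAK-/- and the lines against each other, passed an edgeR adjusted p of 0.05. The direction of the third difference follows from the other 2 and adds no support. The share of all genes that meet this rule is not given here, so the pattern cannot be called particular to matrix genes. For Col6a1 in FAK-WT against FAK-/- cells the edgeR adjusted p was 0.0492, and up to 0.230 with 1 library left out. The log2 fold change of FAK-WT against FAK-kd cells was -0.56 for Col6a1, -2.30 for Col18a1 and -1.15 for Loxl3. For Nid2, at 0 counts in FAK-WT, the fitted value was -9.98, which depends on the prior count and is no measure of size. In Col6a1, Col18a1 and Loxl3, FAK-WT lay below FAK-/- (log2 fold changes -0.25, -1.52 and -0.75) and FAK-kd above it (0.31, 0.78 and 0.40).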

How the results depend on the processing

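The 62 differences of members that passed an adjusted p of 0.05 or were called under some alternative reversed under none of the alternatives. Their values kept their side of the threshold in 1052 cases, gained a call in 26 (Col7a1 and Bgn in FAK-WT against FAK-kd cells, Col1a2 in FAK-WT against FAK-/- cells, Lamb3 and Col4a6 in FAK-kd against FAK-/- cells) and lost one in 31. Of the 42 other differences of members with a group mean of at least 1 CPM, 12 changed sign under some alternative, none of them above 0.18 in size on the log2 scale. Calls of 7 higher members in FAK-WT against FAK-/- cells became 2 with a test against the fold minimum, 4 with DESeq2, 12 without a fold minimum, and 3 to 8 with 1 library left out; the 5 lower members became 13 without a fold minimum and stayed at 5 otherwise. In FAK-WT against FAK-kd cells, 2 higher members became 1 with a test against the fold minimum, 4 with the filter on low counts, with 2 lines fitted alone, with the GC correction and without both FAK-WT replicate 1 and FAK-/- replicate 3, 8 without a fold minimum, and 2 to 4 with 1 library left out, where Col7a1 and Bgn were the genes gained; 6 lower members became 15 without a fold minimum. In FAK-kd against FAK-/- cells, 3 higher members became 1 with a test against the fold minimum and 8 without one, and the 1 lower member, Fbn2, became 0 with DESeq2 (adjusted p 0.11, unadjusted 0.0172) and 2 without a fold minimum. Per kilobase, the members' share of counts was 0.27%, 0.276% and 0.311% (FAK-WT, FAK-/-, FAK-kd). Replicate numbers did not pair the libraries (mean correlation of deviations -0.0077 over 9 same-number pairs, 0.0035 over 18 others); with the replicate block the calls were 5 higher and 5 lower, 3 and 6, and 3 and 1. Depth limits genes under 1 CPM, above all in FAK-WT replicate 1. The causes of these shifts were not tested.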
